A study of Homo sapiens with 44 samples.

Results

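Bone morphogenetic protein (BMP) signalling was followed here through 10 genes: the receptor-activated SMADs SMAD1, SMAD5 and SMAD9, the inhibitory SMADs SMAD6 and SMAD7, the decoy receptor BAMBI, and the targets ID1, ID2, ID3 and ID4. They were taken by gene symbol from the 19923 genes in each deposited table, and all 10 were found. The set was chosen by the input change in Kelly at 1 day, where SMAD6 was among the strongest rises, so Kelly 1 day values below, ratios with those inputs included, are a description: counts past a threshold are printed, no p is given, and nothing is read from them. Each gene had its own exons, with 0 exon bases shared with another gene of the annotation.

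BMP ligands bind pairs of receptor kinases, which phosphorylate SMAD1, SMAD5 and SMAD9 (also called SMAD8). These join the common partner SMAD4, enter the nucleus and bind DNA at target genes. SMAD6, SMAD7 and BAMBI are themselves induced by the pathway and damp it: SMAD6 acts mainly on the BMP branch, SMAD7 on the BMP and TGF-beta branches, and BAMBI resembles a type I receptor that lacks the kinase. The ID proteins are helix-loop-helix factors without a DNA-binding region that sequester E proteins such as TCF3, TCF4 and TCF12, and so hold back the factors that drive neuronal differentiation. BMPs help to specify sympathetic neurons, the lineage from which neuroblastoma arises.

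The libraries came from Kelly and NGP, established human neuroblastoma lines that the labels give as wild type with amplified MYCN, and from Kelly tumours. Cultured cells received 8 µM STM2457, a small-molecule inhibitor of the m6A methyltransferase METTL3, or the solvent DMSO. Kelly was treated for 1 day or for 6 days, and NGP for 6 days. Kelly cells grown under the skin of nude mice, hosts that lack T cells, were treated daily for 14 days with 50 mg/kg STM2457 or with vehicle, a group labelled DMSO. Every group has input libraries, made from sonicated poly(A) RNA, and matching libraries of what an anti-m6A antibody pulled down from it (RIP below). There are 3 of each per group in culture and 2 in the tumours. Nothing in the labels says whether replicates were separate cultures or animals, so the p-values measure the spread between these libraries, which may be technical.

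Library totals ran from 5.49 to 31.5 M fragments in the culture inputs, from 2.14 to 7.27 M in the tumour inputs, and from 4.68 to 36.5 M in the RIP libraries. Levels are given in CPM, the usual scaling of counts by a library's total. All 10 markers of adrenergic neuroblastoma, among them HAND2, GATA3 and MYCN, reached 1 CPM in some library of every input group. TH, DBH, CHGA and CHGB averaged lowest in NGP, and HAND2 and GATA3 highest there. TH averaged 1.91 CPM in NGP, against 584, 738 and 1733 CPM in Kelly at 1 day, at 6 days and in the tumours. Of the 10 endothelial markers, PECAM1, CDH5, TEK, KDR, ESAM, TIE1 and ERG averaged under 1 CPM in the inputs of every experiment. EGFL7 averaged 19.9 and 94.1 CPM in the Kelly inputs of days 1 and 6, 32.7 CPM in NGP and 106 CPM in the tumours. CLDN5 averaged 1.11 to 7.44 CPM and VWF 0.0461 to 13.2 CPM, both highest in the tumours. The common coefficient of variation of the fits was 0.0725 in the Kelly 1 day inputs, 0.0913 in the Kelly 6 day inputs, 0.240 in NGP and 0.448 in the tumours. In these bulk libraries, a shift in the share of cells in some state and a change of RNA per cell cannot be told apart.

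The regulatory DNA of 3 members is shown. SMAD6 and BAMBI rose in both lines, as did SMAD9 and ID2, and ID1 did not. The windows are the 250 bases before the transcription start in RefSeq (GRCh38.p14), and all 10 members matched an entry. Capitals mark matches, on either strand, to 7 motifs. The palindrome GTCTAGAC and the box CAGAC are known as SMAD elements. The element GGCGCC and its variant GGAGCC, rich in G and C, are known to bind the BMP SMADs. The others are the E-box CACGTG, the promoter box TATAAA and the upstream box CCAAT. These textbook motifs were chosen with the sequences at hand.
SMAD6 chr15:66701986-66702235, plus strand: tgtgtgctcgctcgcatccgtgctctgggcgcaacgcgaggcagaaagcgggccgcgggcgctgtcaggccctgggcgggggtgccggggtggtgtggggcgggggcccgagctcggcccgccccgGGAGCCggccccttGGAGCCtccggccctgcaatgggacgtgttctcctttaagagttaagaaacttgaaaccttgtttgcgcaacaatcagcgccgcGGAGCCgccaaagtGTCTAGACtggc
BAMBI chr10:28677271-28677520, plus strand: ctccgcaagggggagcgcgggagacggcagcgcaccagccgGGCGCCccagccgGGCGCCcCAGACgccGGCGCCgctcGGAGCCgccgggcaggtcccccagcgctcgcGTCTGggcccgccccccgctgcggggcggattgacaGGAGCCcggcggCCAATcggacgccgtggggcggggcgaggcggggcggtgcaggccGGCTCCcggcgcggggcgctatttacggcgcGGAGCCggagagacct
ID1 chr20:31605039-31605288, plus strand: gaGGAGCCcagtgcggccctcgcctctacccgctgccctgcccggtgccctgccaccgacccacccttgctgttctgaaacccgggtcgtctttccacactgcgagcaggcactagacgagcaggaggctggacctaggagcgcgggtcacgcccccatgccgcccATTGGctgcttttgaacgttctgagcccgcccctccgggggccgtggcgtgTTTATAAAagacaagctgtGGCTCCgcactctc

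The SMAD6 window holds the full palindrome GTCTAGAC 12 bases before the start and 3 copies of GGAGCC. The palindrome occurs in 64 of 35116 RefSeq windows of this length, a share of 0.182%. BAMBI holds 3 copies of GGCGCC, an element found in 16.4% of windows, with CAGAC on each strand (38.0% of windows), 4 copies of GGAGCC (30.6%) and 1 CCAAT (32.0%). The ID1 window has GGAGCC on each strand, CCAAT in reverse and, 31 bases before the start, TATAAA with an overlapping copy on the other strand, a motif present in 10.7% of windows. The SMAD9 window and 1 of the 5 SMAD1 windows carry the E-box CACGTG (6.34% of windows), which is the site that MYC and MYCN are known to bind, and ID2 has 3 copies of CCAAT. Of the SMAD elements, the SMAD9 window holds GGAGCC alone and the ID2 window holds none. These matches are letters in a window, not measured binding, and bases further upstream were not searched.

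Levels with DMSO set ID1, ID2 and ID3 far above the SMADs, BAMBI and ID4. Per kilobase of exon, the DMSO inputs of Kelly at 6 days held 80.9 ± 1.71 CPM for ID3, 23.2 ± 0.924 for ID2 and 16.5 ± 1.21 for ID1 (SD, n = 3), each apart from the next in every library. ID4, BAMBI, SMAD6, SMAD9 and SMAD5 followed between 1.54 and 1.90 CPM per kilobase, neighbours whose libraries overlapped, and SMAD1 at 1.09 and SMAD7 at 0.933 came last. ID3, ID2 and ID1 kept this order in Kelly at 1 day and in the DMSO tumours. In NGP the order differed: ID1 led with 124 ± 11.5 CPM per kilobase (SD, n = 3), and ID3 at 62.1 ± 17.1 and ID2 at 59.8 ± 2.27 overlapped.

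NGP carried more of most members than Kelly under DMSO at 6 days. By edgeR, with quasi-likelihood fits and p-values adjusted over all genes by the Benjamini-Hochberg method, 6 of 10 were higher in NGP and 1 lower, where 29.1% of 12940 genes were higher and 31.7% lower (60.8% in all). ID1 stood at 19.6, 22.1 and 19.4 CPM in Kelly and at 137, 161 and 162 CPM in NGP, a log2 difference of 2.72 (SE 0.120, edgeR adjusted p 3.83e-08). The ID1 groups were far apart, with no overlap. SMAD7 differed by 1.80, SMAD9 by 1.51, SMAD6 by 1.47 and ID2 by 1.17 on the log2 scale. ID3 was lower in NGP, with a difference of -0.57 (SE 0.159, edgeR adjusted p 0.0101). SMAD1 was 0.64 higher at an edgeR adjusted p of 0.0496, a call lost under 8 of 10 alternatives, among them the fits without any single Kelly DMSO library (0.53, 0.76 and 0.64 without replicates 1, 2 and 3) or without NGP DMSO replicate 3 (0.42). The lines were handled as separate experiments, so line and batch cannot be told apart.

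Receptors and partners were measured alongside. SMAD4, the common partner, had 0.824 CPM per kilobase in the Kelly 6 day DMSO inputs and 0.952 in NGP. The type I receptors BMPR1A, BMPR1B and ACVR1 stood at 1.21, 2.61 and 0.442 CPM per kilobase in Kelly and at 1.24, 4.96 and 2.37 in NGP, and the type II receptor BMPR2 at 0.943 and 1.92. Of the E proteins that the ID proteins bind, TCF3 was the most abundant per kilobase, at 64.9 in Kelly and 121 in NGP, against 4.15 and 10.9 for TCF12 and 2.30 and 1.80 for TCF4. In Kelly TCF3 thus stood below ID3 per kilobase, 64.9 ± 0.207 against 80.9 ± 1.71 CPM (SD, n = 3), and in NGP above it, 121 ± 8.09 against 62.1 ± 17.1 CPM (SD, n = 3).

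SMAD6, the BMP-branch inhibitor, was higher with STM2457 in every culture library. In Kelly at 1 day, the comparison that chose it, SMAD6 (chr15:66702236-66782849, GRCh38, plus strand) read 33.2, 39.8 and 34.9 CPM with DMSO and 76.0, 75.0 and 73.4 CPM with STM2457. The log2 change was 1.03, and 0.242% of tested genes had a larger one. At 6 days Kelly read 16.3, 15.1 and 13.8 CPM with DMSO and 31.2, 33.8 and 46.8 CPM with STM2457. The lowest treated library was thus above the highest control. That change was 1.16 (95% interval 0.865 to 1.45, SE 0.138, edgeR adjusted p 1.36e-05), 2.23-fold, using TMM factors that moderate the raw CPM ratio. NGP read 47.5, 51.2 and 44.6 CPM with DMSO and 135, 122 and 118 CPM with STM2457, again without overlap. The NGP change was 1.32 (95% interval 0.979 to 1.66, SE 0.165, edgeR adjusted p 2.04e-05), 2.50-fold. In both 6 day fits SMAD6 passed under all 11 alternatives.

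**Figure D1:**
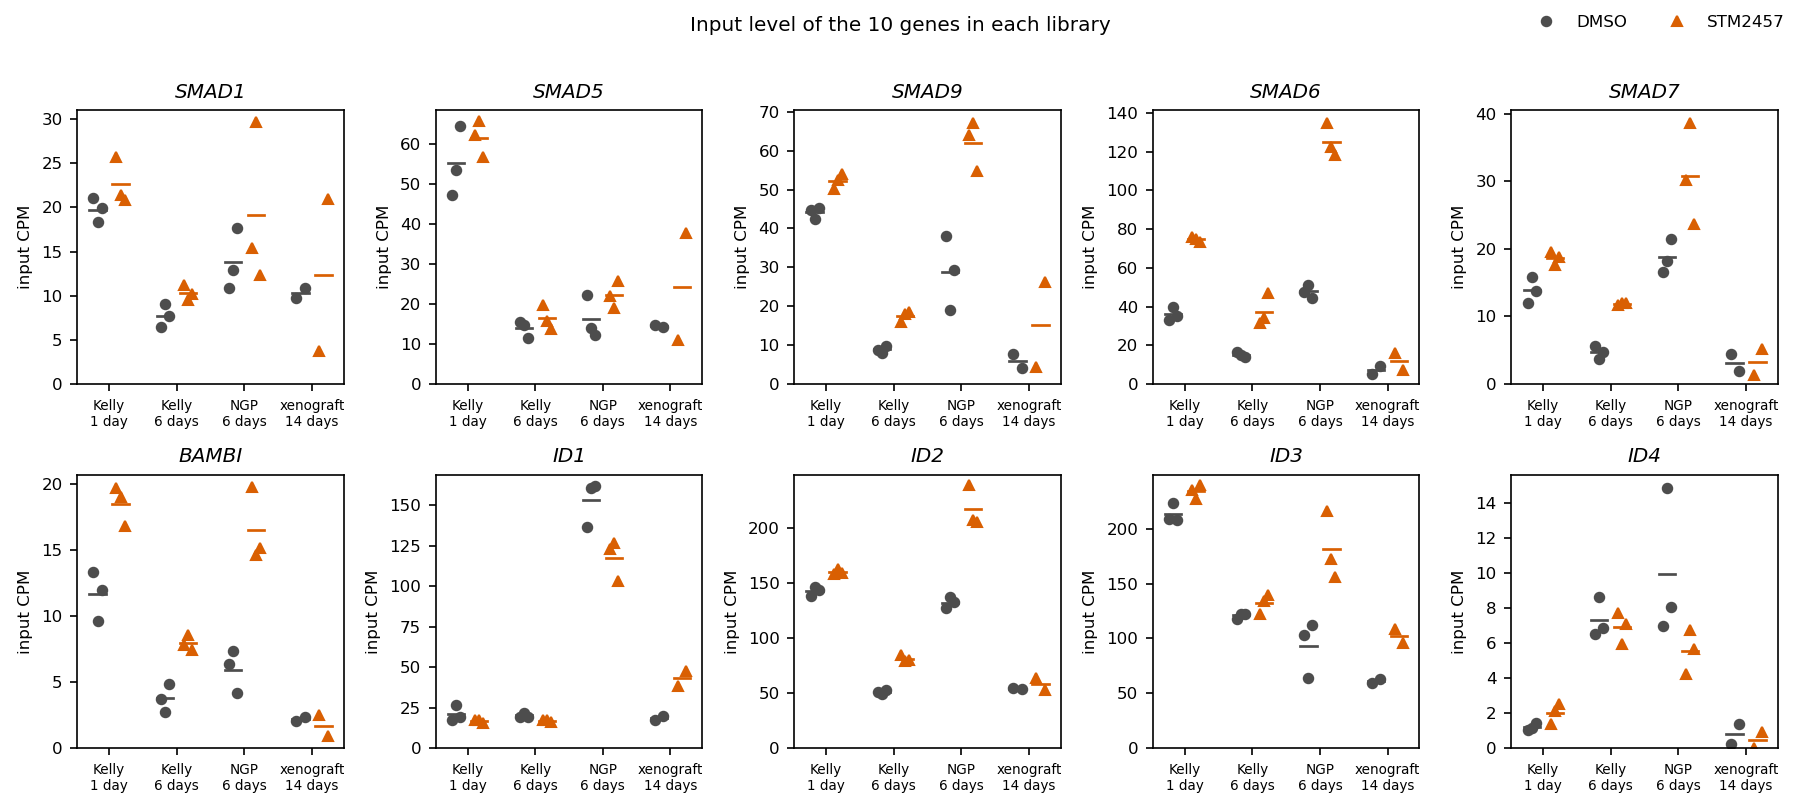
Input level in CPM (y axis, from 0) of the 10 genes in each library (points; bars are group means) by experiment, DMSO in grey circles and STM2457 in orange triangles. SMAD6 in NGP moved from 44.6 to 51.2 CPM up to 118 to 135 CPM, while ID1 in NGP went from 137 to 162 CPM down to 104 to 127 CPM.

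At 6 days the members called in Kelly were SMAD6, SMAD7, SMAD9, BAMBI and ID2 upward and ID1 downward, 5 and 1 of 10, where 11.9% of 12773 genes were called higher and 14.7% lower (26.6% in all). In NGP SMAD6, SMAD9, BAMBI, ID2 and ID3 rose, 5 of 10, and 0 fell, where 2.07% of 12289 genes were called higher and 2.16% lower (4.23% in all). SMAD6, SMAD9, BAMBI and ID2 were called higher in both lines, 4 of 10 members, against 1.38% of the 11682 genes tested in both. Without DMSO replicate 1 or 3 the NGP count was 3, and without treated replicate 1 it was 1, SMAD6. In Kelly at 1 day, the comparison that chose the set, 4 members were past the same threshold upward, beside 9.41% of all genes. That count tests nothing, and without treated replicate 1 or 3 it was 2. The shares of all genes given here belong to the fits with every library, and not to those with a replicate left out. In the Kelly 6 day inputs 6 of 10 members were higher without overlap and 1 lower, beside 30.2% and 14.3% of 12471 genes. In the NGP inputs 6 of 10 were higher without overlap and 2 lower, beside 15.2% and 8.5% of 12270 genes.

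SMAD7, the inhibitor shared with the TGF-beta branch, rose in Kelly at 6 days from 5.63, 3.68 and 4.78 CPM to 11.65, 11.97 and 11.97 CPM. The treated libraries lay close together and above every control. Its log2 change was 1.23 (95% interval 0.844 to 1.62, SE 0.182, edgeR adjusted p 0.000107), 2.35-fold, and it passed under all 11 alternatives. In NGP SMAD7 read 16.6, 18.3 and 21.4 CPM with DMSO and 30.2, 38.6 and 23.7 CPM with STM2457. Those groups did not overlap, but the change of 0.64 (95% interval 0.120 to 1.16) had an edgeR adjusted p of 0.167 and passed under 0 alternatives. At 1 day in Kelly its log2 change was 0.40.

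BAMBI (chr10:28677510-28682932) rose in both lines from low counts. Kelly at 6 days read 3.72, 2.74 and 4.86 CPM with DMSO and 7.78, 8.57 and 7.46 CPM with STM2457. The log2 change was 0.98 (95% interval 0.508 to 1.45, SE 0.222, edgeR adjusted p 0.00365). NGP read 6.33, 7.34 and 4.18 CPM with DMSO and 19.7, 14.6 and 15.1 CPM with STM2457, with the treated libraries well above the controls. The NGP change was 1.41 (95% interval 0.689 to 2.14, SE 0.351, edgeR adjusted p 0.0214), 2.66-fold. The NGP call was lost without DMSO replicate 1 (1.44), DMSO replicate 3 (1.21) or treated replicate 1 (1.26).

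Among the receptor-activated SMADs only SMAD9 passed in the 6 day inputs. SMAD9 differs from SMAD1 and SMAD5 in being described as a weaker activator that can also inhibit the pathway. In Kelly it went from 8.85, 8.06 and 9.72 CPM to 15.8, 18.0 and 18.6 CPM, a log2 change of 0.86 (SE 0.138, edgeR adjusted p 0.000235). In NGP it went from 38.1, 19.0 and 29.3 CPM to 64.1, 67.2 and 54.8 CPM, a log2 change of 1.03 (SE 0.217, edgeR adjusted p 0.00627). The treated libraries exceeded every control in both lines. The Kelly call was lost when all 22 inputs shared 1 fit (0.88), and the NGP call without treated replicate 1 (1.00). SMAD1 and SMAD5 did not pass: SMAD1 had log2 changes of 0.31 and 0.38 and SMAD5 of 0.17 and 0.38 in Kelly and NGP, with 95% intervals that included 0. The upper ends of these intervals were 0.667 and 1.06 for SMAD1 and 0.496 and 0.957 for SMAD5. SMAD1 in NGP stood at -0.075 without treated replicate 2, its highest library at 29.7 CPM.

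**Figure D2:**
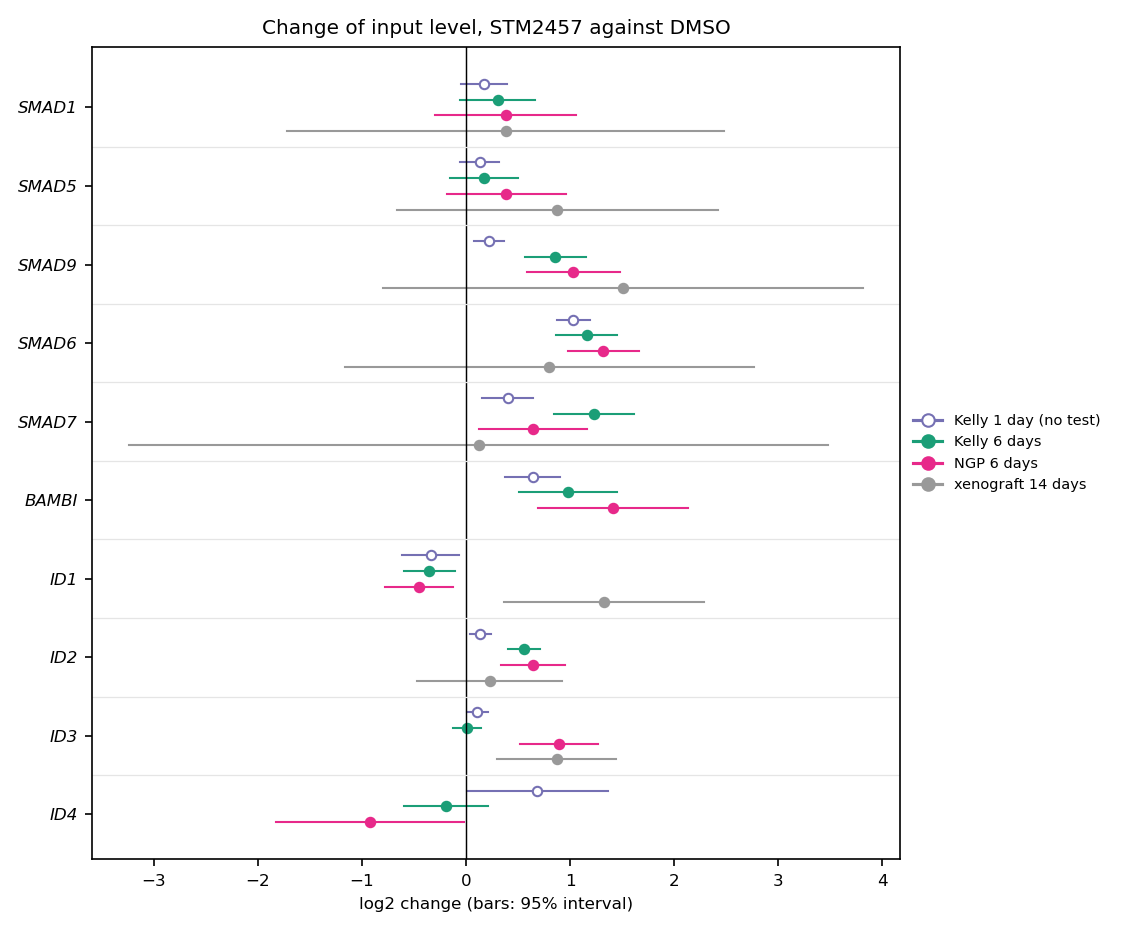
Log2 change of input level with STM2457 against DMSO (x axis) for each gene (y axis), fitted with edgeR, points with 95% intervals, with a colour for each experiment; open points, Kelly 1 day, were used to choose the genes and carry no test. SMAD6 lies at 1.16 and 1.32 in the 6 day lines, ID1 at -0.35 and -0.45 there and at 1.33 in the tumours, whose intervals are the widest.

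The ID genes did not move as a block. ID2 rose in both lines: Kelly at 6 days went from 51.5, 49.1 and 53.2 CPM to 84.5, 79.2 and 80.0 CPM, and NGP from 127, 137 and 133 CPM to 239, 208 and 206 CPM. These groups were apart in both lines. The log2 changes were 0.56 (SE 0.0745, edgeR adjusted p 4.15e-05) and 0.64 (SE 0.149, edgeR adjusted p 0.0131). The NGP call was lost without DMSO replicate 1 (0.59), DMSO replicate 3 (0.65) or treated replicate 1 (0.57), and the Kelly call passed under all 11 alternatives.

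ID1, the classical immediate BMP target, went the other way in culture. Kelly at 6 days read 19.6, 22.1 and 19.4 CPM with DMSO and 17.3, 17.8 and 16.0 CPM with STM2457. Every treated library was below every control, by a small margin. The log2 change was -0.35 (95% interval -0.594 to -0.108, SE 0.115, edgeR adjusted p 0.0322). This call did not hold without any single library (log2 changes from -0.38 to -0.29), with DESeq2 (-0.34) or with all inputs in 1 fit (-0.34). NGP read 137, 161 and 162 CPM with DMSO and 123, 127 and 104 CPM with STM2457, again all lower. Its change of -0.45 (95% interval -0.778 to -0.129) had an edgeR adjusted p of 0.11, and 1 of 11 alternatives, all inputs in 1 fit, called it.

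ID3 read 118, 122 and 123 CPM with DMSO and 122, 134 and 140 CPM with STM2457 in Kelly at 6 days, groups that overlapped, with a log2 change of 0.011 (95% interval -0.125 to 0.147). In NGP ID3 rose from 103, 63.7 and 112 CPM to 216, 173 and 156 CPM. Every treated NGP library was above the controls, of which replicate 2 was the lowest. The NGP change was 0.89 (95% interval 0.517 to 1.27, SE 0.183, edgeR adjusted p 0.00494), a call lost without treated replicate 1 (0.75). ID4 reached at most 14.9 CPM in any input, and its changes of -0.19 in Kelly and -0.92 in NGP did not pass, with edgeR adjusted p values of 0.493 and 0.271.

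Whether Kelly and NGP responded differently at 6 days was tested with an interaction term, which called 0 of 10 members and 1.36% of 13448 genes. For SMAD6 the difference, Kelly minus NGP, was -0.12 (95% interval -0.559 to 0.314). For ID3 it was -0.85 (95% interval -1.31 to -0.394, edgeR adjusted p 0.0637), and over the alternatives that p ran from 0.0133 to 0.177. ID3 was called with DESeq2 (-0.88), without the low-count filter (-0.84), without NGP DMSO replicate 3 (-1.02) and without NGP treated replicate 3 (-0.94). SMAD7 differed by 0.61 (95% interval -0.0534 to 1.28) and BAMBI by -0.43 (95% interval -1.28 to 0.432).

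In the xenograft 8 of the 10 members had enough counts to test, and 0 passed, as did 0% of 11329 genes by edgeR. In all, 968 genes there had an unadjusted p under 0.05, ID1 and ID3 among them, and DESeq2 called 120 genes and 0 members. ID1 read 17.7 and 19.9 CPM with vehicle and 38.6 and 48.0 CPM with STM2457, the opposite order to the cultures. Its change of 1.33 (95% interval 0.369 to 2.28) had an edgeR adjusted p of 0.532. ID3 read 59.3 and 62.7 CPM with vehicle and 108 and 96.0 CPM with STM2457, a change of 0.87 (95% interval 0.299 to 1.45, edgeR adjusted p 0.511). Treated tumours did not overlap the vehicle tumours for either gene. With a mean of at least 1 CPM, 2 of 9 members were higher without overlap and 0 lower, beside 13.5% and 28.3% of 12473 genes. All inputs in 1 fit called ID1 (1.29), ID3 (0.85) and SMAD9 (1.45), and the share of all genes it called is not given here. Without treated replicate 1 the changes were 1.48 for ID1, 0.79 for ID3, 1.52 for SMAD5 and 2.31 for SMAD9. Without treated replicate 2 they were 0.94 for ID3, -0.28 for SMAD5 and -0.29 for SMAD9. Each of the fits without a replicate rests on 1 treated tumour library.

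SMAD6 in the tumours read 5.35 and 9.35 CPM with vehicle and 16.0 and 7.46 CPM with STM2457, so that treated replicate 2 lay within the controls. Its interval ran from -1.17 to 2.77. On simulated counts like the tumour inputs, 15.3% of genes changed 2-fold and 45.4% of those changed 4-fold were recovered, against 97% and 100% in Kelly at 6 days, so a 2-fold change was mostly not detectable in the tumours. SMAD4, the common partner, read 16.3 and 13.9 CPM with vehicle and 3.45 and 0.466 CPM with STM2457, a change of -2.75 that did not pass (edgeR adjusted p 0.554). Summed endothelial markers stood at 109 and 117 CPM with vehicle and 137 and 147 CPM with STM2457, and 4 and 3 of the 10 reached 1 CPM in some library; EGFL7 alone averaged 106 CPM over the 4 tumour inputs. PECAM1, TEK and ERG were at 0 in the vehicle tumours, and CDH5, TEK, KDR, ESAM, TIE1 and ERG at 0 in the treated ones. Fibroblast markers summed to 301 and 336 CPM with vehicle and 399 and 331 CPM with STM2457. FBLN1 averaged 143 CPM, PDGFRB 90.1, THY1 63.9, COL1A1 42.4, COL3A1 1.61 and PDGFRA 0.969 CPM over the 4 tumour inputs. COL1A2, DCN, LUM and FAP were at 0 in all tumour inputs. In the Kelly 6 day DMSO inputs the endothelial sums were 124 to 135 CPM and the fibroblast sums 390 to 409 CPM. The counts are over human genes, and the hosts were mice. The part of other cells in the ID1 and ID3 values was not tested.

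The rest of the pathway was read from lists of its genes. Of the receptors and co-receptors, 10 of 11 were tested in each line and 0 passed in Kelly at 6 days or in NGP, with median log2 changes of -0.0027 and 0.021 beside -0.0045 and 0.010 over all genes. BMP and GDF ligands were sparse: 2 of 14 were tested in Kelly and 3 in NGP, and 0 passed. Of the 18 intracellular partners and regulators, 8 rose and 0 fell in Kelly (median 0.25), where 11.9% of all genes rose and 14.7% fell. In NGP 0 of 18 passed (median 0.079), where 2.07% of all genes rose, so a count of 0 lies near the background there. SMAD3, the TGF-beta branch SMAD, rose in Kelly by 0.77, and the SMAD corepressors SKI and SKIL by 0.63 and 0.73 (edgeR adjusted p 0.000275, 5.65e-05 and 0.0444). SMAD4 had log2 changes of 0.11 and 0.077, neither called.

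Among the 18 secreted antagonists and modulators, 2 of 9 tested rose in Kelly and 1 of 8 in NGP, beside 11.9% and 2.07% of all genes. BMP1, a protease that cleaves the antagonist chordin, rose by 0.39 in Kelly.

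Of the target transcription factors, 2 of 7 tested rose in Kelly and 1 of 11 in NGP, beside 11.9% and 2.07% of all genes. The interaction term between the lines called 1 of 11, MSX2, beside 1.36% of all genes. GATA3 and DLX5 rose in Kelly by 0.55 and 0.40. MSX2, a homeobox target of BMP signalling, read 1.45, 1.07 and 0.895 CPM with DMSO and 12.2, 12.4 and 9.66 CPM with STM2457 in NGP, a log2 change of 3.24 (SE 0.519, edgeR adjusted p 0.000398). In Kelly MSX2 read 4.05, 3.60 and 3.81 CPM with DMSO and 3.21, 2.54 and 6.42 CPM with STM2457, groups that overlapped.

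Of the E proteins and their partners, TCF3 and TCF4 had changes from -0.022 to 0.14 in both lines, none called. TWIST1 fell in Kelly by 0.34 on the log2 scale. HAND1, a sympathetic lineage factor, rose by 0.41 in Kelly and 0.57 in NGP. In NGP the neurogenic factors NEUROD1 and NEUROG2 fell by 1.26 and 0.60 on the log2 scale (edgeR adjusted p 1.37e-05 and 0.0352). The list of 12 thus had 2 higher and 1 lower of 8 tested in Kelly and 1 higher and 2 lower of 11 in NGP. All genes had 11.9% higher and 14.7% lower in Kelly, and 2.07% and 2.16% in NGP.

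Which genes shared the pattern of SMAD6 was described over the 22 inputs, with log2(CPM + 1) centred within each experiment. Of 9340 genes with a mean of at least 10 CPM, the 5 closest by Pearson correlation included TLX2 (0.94), PRCC (0.92), FOXM1 (0.92) and TSR3 (0.92). Among members ID2 ranked 18th at 0.88, followed by ID3 at 0.66, SMAD7 at 0.50 and SMAD9 at 0.43, whereas ID1 was at -0.25. The genes closest to ID1 were YIF1A (0.87), CEP131 (0.87), ATP9B (0.86), KIFC3 (0.85) and UBE2D1 (0.85). The points share treatment and depth, and they include the Kelly 1 day inputs that chose the set. These values are thus a description and carry no p.

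The antibody pulldown separated the members. N6-methyladenosine is laid down mostly at DRACH sequences, of which GGACT is the strongest form, and typically near stop codons and in long exons. In the DMSO groups BAMBI had a log2 ratio of RIP over input of 2.94 (SE 0.312) in Kelly at 6 days and 2.39 in NGP (edgeR adjusted p 5.86e-06 and 1.04e-07). This was the highest fitted ratio of the members in NGP. In Kelly at 6 days SMAD7 at 2.84 (SE 0.346) was not apart from it, and its pulldown over mean input exceeded that of BAMBI in 2 of 3 libraries, 6.78 against 5.89 and 9.69 against 9.11. ID3 was depleted at 6 days in both lines, at -1.83 and -1.86 (edgeR adjusted p 0.0393 and 2.33e-07). At 1 day in Kelly the ratios were 3.43 for BAMBI and -1.41 for ID3. The pulldown counts of BAMBI in Kelly at 6 days were 22.2, 33.6 and 34.4 CPM against inputs of 2.74 to 4.86 CPM, and those of ID3 were 38.1, 36.7 and 30.9 CPM against inputs of 118 to 123 CPM. The ID3 call at 6 days was lost without DMSO replicate 1 (-1.78), 2 (-1.83) or 3 (-1.64).

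Taking a log2 ratio of at least 1 as enriched, 5 members were past it upward and 1 downward in Kelly at 1 day, again a description, where 26.3% of 13669 genes were enriched and 29.1% depleted (55.5% in all). In Kelly at 6 days 6 were enriched and 1 depleted, against 25.8% and 27.3% of 13324 genes (53.1% in all). In NGP 4 were enriched and 2 depleted, against 20.9% and 19% of 13088 genes (40% in all). In the xenograft 0 of 9 tested passed by edgeR, against 1.61% enriched and 2.15% depleted of 12626 genes (3.75% in all). There edgeR gave 3015 genes an unadjusted p under 0.05. DESeq2 called 1 member, and its share of all genes is not given here, so nothing is read from that call.

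SMAD9 was enriched at 6 days in both lines, at 1.68 and 1.14, and stood at 1.35 in Kelly at 1 day. SMAD6 and SMAD7 were enriched in Kelly at 6 days, at 2.61 and 2.84 (SE 0.264 and 0.346, edgeR adjusted p 3.95e-06 and 1.92e-05), but stood at 0.27 and 0.52 in NGP, where neither passed. These NGP values were -0.11 and -0.0037 without DMSO replicate 1, whose SMAD6 pulldown of 91.7 CPM exceeded the 52.5 and 41.6 CPM of the others. In Kelly at 1 day SMAD6 and SMAD7 stood at 0.92 and 1.64. The difference between the lines was not tested. In Kelly on days 1 and 6 and in NGP, SMAD1 had 2.42, 2.15 and 0.84, and SMAD5 1.17, 0.58 and 1.35. ID2 reached 1.09 in Kelly at 6 days, a call lost without any DMSO library (1.39, 0.74 and 1.34 without replicates 1, 2 and 3), and 1.57 in NGP (SE 0.180, edgeR adjusted p 1.59e-07). ID1 was depleted in NGP, at -1.58 (SE 0.189, edgeR adjusted p 2.77e-07), and its Kelly 6 day value of -1.28 did not pass. Leaving out 1 replicate made further calls: SMAD1 in NGP without DMSO replicate 3 (1.12), ID1 in Kelly at 6 days without treated replicate 2 (-1.30), and ID4 in Kelly at 6 days without treated replicate 3 (-1.32).

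**Figure D3:**
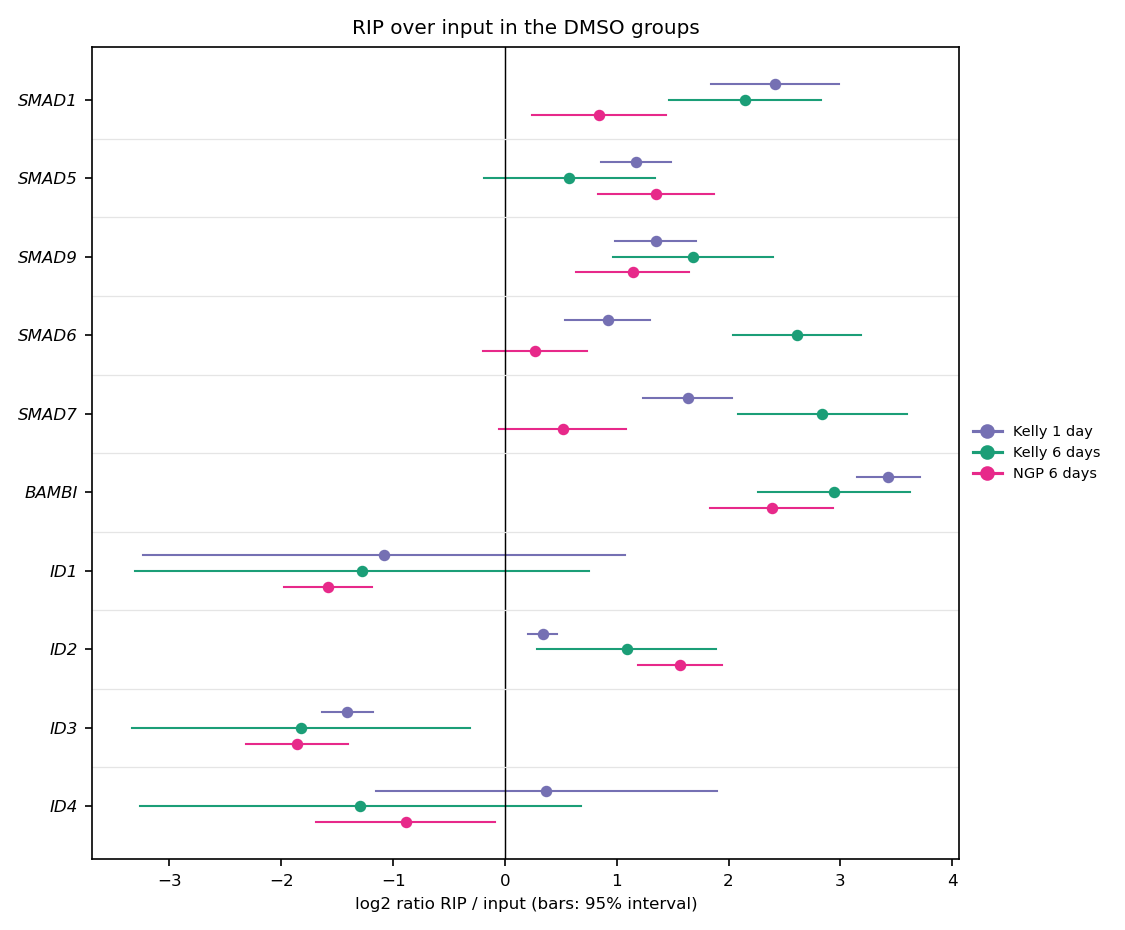
Log2 ratio of RIP over input in the DMSO groups (x axis) for each gene (y axis), fitted with edgeR, points with 95% intervals, for the 3 culture experiments. BAMBI lies at 2.39 to 3.43, ID3 at -1.86 to -1.41, and SMAD6 at 2.61 in Kelly at 6 days but 0.27 in NGP.

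Sequence features of the mRNAs were set beside these ratios, using the reference transcript of each gene in GENCODE 44. The GGACT sites of 3 members are shown with 10 bases on either side and GGACT in capitals. BAMBI and ID3 mark the ends of the range, and the SMAD6 input change passed under all 11 alternatives in both 6 day fits.
BAMBI 5′ UTR chr10:28677595-28677619: ccgctagcggGGACTgaaggccggg
BAMBI coding chr10:28681381-28681405: atggctgcctGGACTctcttgcaag
SMAD6 5′ UTR chr15:66702505-66702529: ctgcatcggtGGACTgcatttttaa
SMAD6 5′ UTR chr15:66703019-66703043: ggccgcgcgcGGACTgcggctcggc
ID3 5′ UTR chr1:23559466-23559490, minus strand: cactgtagcgGGACTtcttttggtt
ID3 5′ UTR chr1:23559428-23559452, minus strand: gggcacctctGGACTcactccccag
ID3 3′ UTR chr1:23558253-23558277, minus strand: caggagcgaaGGACTgtgaacttgt

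GGACT density did not order the members. ID3 has 3 sites in 950 bases, or 3.16 per kilobase, more than 98.7% of 12963 genes, yet it was depleted at 6 days in both lines. BAMBI has 2 sites in 1691 bases (1.18 per kilobase), SMAD6 has 2 in 3828 bases (0.522 per kilobase), both in the 5′ UTR, and ID1 has 0 in 983 bases. The median over genes was 0.933 per kilobase. Counts per gene do not show which site was bound.

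Across all genes, the median ratio was higher in classes of longer mRNAs; GGACT density was not set against the ratio across all genes. Genes with mRNAs under 1000 bases, 686 in number, had a median log2 ratio of -1.70 in Kelly at 6 days and -0.72 in NGP, and the 1196 genes of 8000 bases or more had 0.74 and 0.56. ID1 and ID3 lie in the shortest class, at -1.28 and -1.83 in Kelly at 6 days and -1.58 and -1.86 in NGP. BAMBI and ID2, the latter of 1299 bases, belong to the class from 1000 to 2000 bases, whose medians were -0.88 and -0.42, and of which 24.9% and 14.7% reached a log2 ratio of 1. Length did not order the members either: SMAD5, at 7013 bases the longest, stood at 0.58 in Kelly. BAMBI and ID2 were above their length class, at 2.94 and 1.09 in Kelly and 2.39 and 1.57 in NGP. Genes within a library are not independent, and no p is given.

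**Figure D4:**
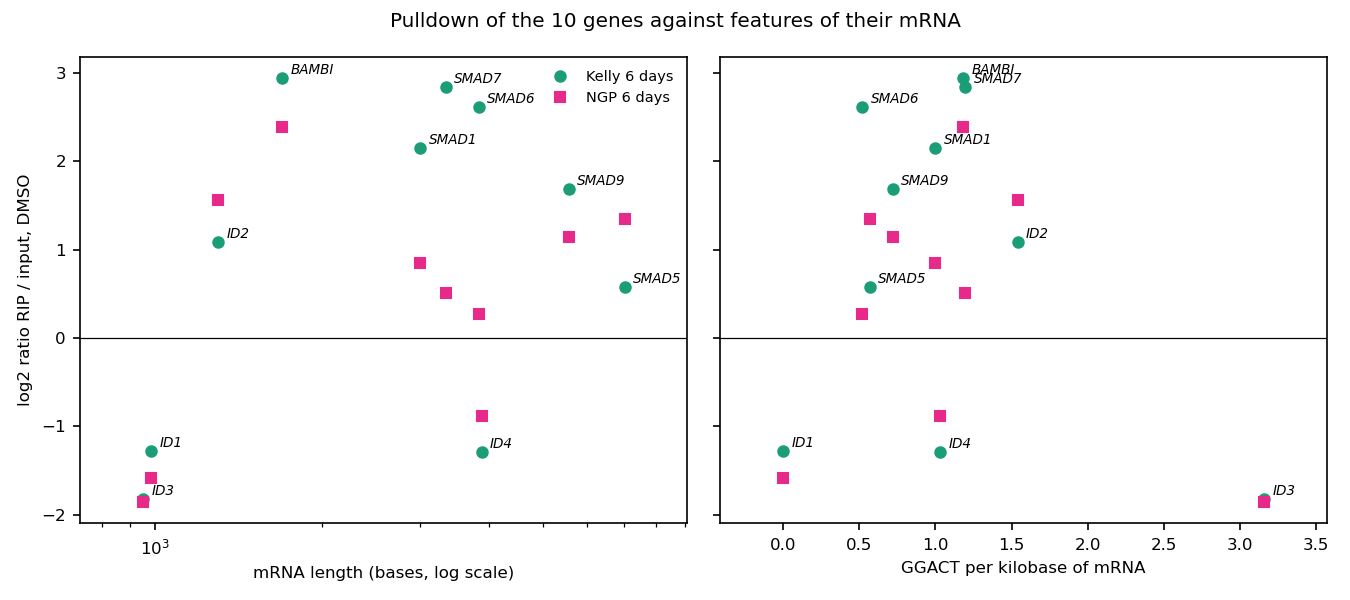
Log2 ratio of RIP over input with DMSO (y axis) against mRNA length in bases (left, log axis) and GGACT sites per kilobase (right) for the 10 genes, green circles for Kelly at 6 days and pink squares for NGP. BAMBI, at 1691 bases, lies highest, and ID3, with the highest GGACT density of 3.16 per kilobase, lies lowest.

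With STM2457, pulldown CPM of SMAD6 and BAMBI was higher in both lines at 6 days, and that of SMAD7 overlapped its controls. CPM is a share of each library, so the total amount pulled down is not seen in it. SMAD6 in the RIP libraries of Kelly at 6 days read 86.0, 79.4 and 119 CPM with DMSO and 189, 203 and 304 CPM with STM2457, and in NGP 91.7, 52.5 and 41.6 CPM and 218, 156 and 176 CPM. BAMBI in Kelly at 6 days read 22.2, 33.6 and 34.4 CPM in RIP with DMSO and 54.9, 61.1 and 78.1 CPM with STM2457. BAMBI in NGP read 41.7, 28.6 and 28.3 CPM in RIP with DMSO and 117, 75.3 and 107 CPM with STM2457. Treated and control RIP libraries did not overlap for these. SMAD7, whose input rose in Kelly at 6 days, read 31.8, 26.2 and 45.5 CPM in RIP there with DMSO and 34.2, 45.1 and 61.2 CPM with STM2457. In NGP its pulldown of 44.8, 20.3 and 21.7 CPM with DMSO also overlapped the 52.9, 39.0 and 51.0 CPM with STM2457. In Kelly at 6 days the pulldown of 2 members, SMAD6 and BAMBI, was higher without overlap, beside 8.26% of 12283 genes. That of 1 member was lower, beside 14.3%. In NGP 4 members were higher without overlap and 0 lower, beside 10.1% and 10.7% of 12328 genes. The SMAD7 ratio of RIP over input changed by -0.53 in Kelly at 6 days (95% interval -1.52 to 0.466, edgeR adjusted p 0.644). The ratio of RIP over input for SMAD6 changed by 0.36 in Kelly at 6 days (95% interval -0.407 to 1.13, edgeR adjusted p 0.692), and was -0.065 without DMSO replicate 1.

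In Kelly at 6 days 0 of 10 members passed the test of a changed ratio, where 2.06% of 13324 genes did, and 0 members and 0% of 13088 genes passed in NGP. The xenograft had 0 of 9 members and 0% of 12626 genes, with 764 genes in NGP and 809 in the xenograft at an unadjusted p under 0.05. DESeq2 called 0 members in each of these 3 experiments, and 907, 2 and 159 genes in all. Member values ran from -1.89 for ID1 to 0.80 for ID4 in Kelly at 6 days, and from -0.73 for ID3 to 0.93 for ID4 in NGP. ID3 was the member with the lowest unadjusted p in NGP, 0.0231 (edgeR adjusted p 0.839, over all genes). On simulated counts, 2% of genes whose ratio changed 2-fold and 32% of those changed 4-fold were recovered in Kelly at 6 days. Those shares were 27% and 89% in NGP, and 0% for both in the tumours. A 2-fold change of the ratio was thus mostly not detectable in these experiments.

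In Kelly at 1 day, where the comparison includes the libraries that chose SMAD6, ID3 and ID4 were past the threshold downward, 2 of 10, and 7.62% of 13669 genes were, with 9.53% upward and 17.2% in all. Without treated replicate 3 the count was 5, and the share of all genes in that fit is not given here. On simulated counts 14.1% of the genes that this 1 day comparison called were false. ID3 pulldown read 79.6, 74.5 and 77.3 CPM with DMSO and 30.6, 29.6 and 40.7 CPM with STM2457 while its input went from 209, 223 and 207 CPM to 235, 227 and 240 CPM. ID1 pulldown read 13.5, 10.6 and 4.68 CPM with DMSO and 0, 0.0274 and 2.41 CPM with STM2457. ID4 pulldown was 1.08 to 2.01 CPM with DMSO and 0.0378 to 0.113 CPM with STM2457. At this time point input and RIP libraries lie in separate folders per the file headers, so folder and antibody cannot be told apart in its ratios.

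**Figure D5:**
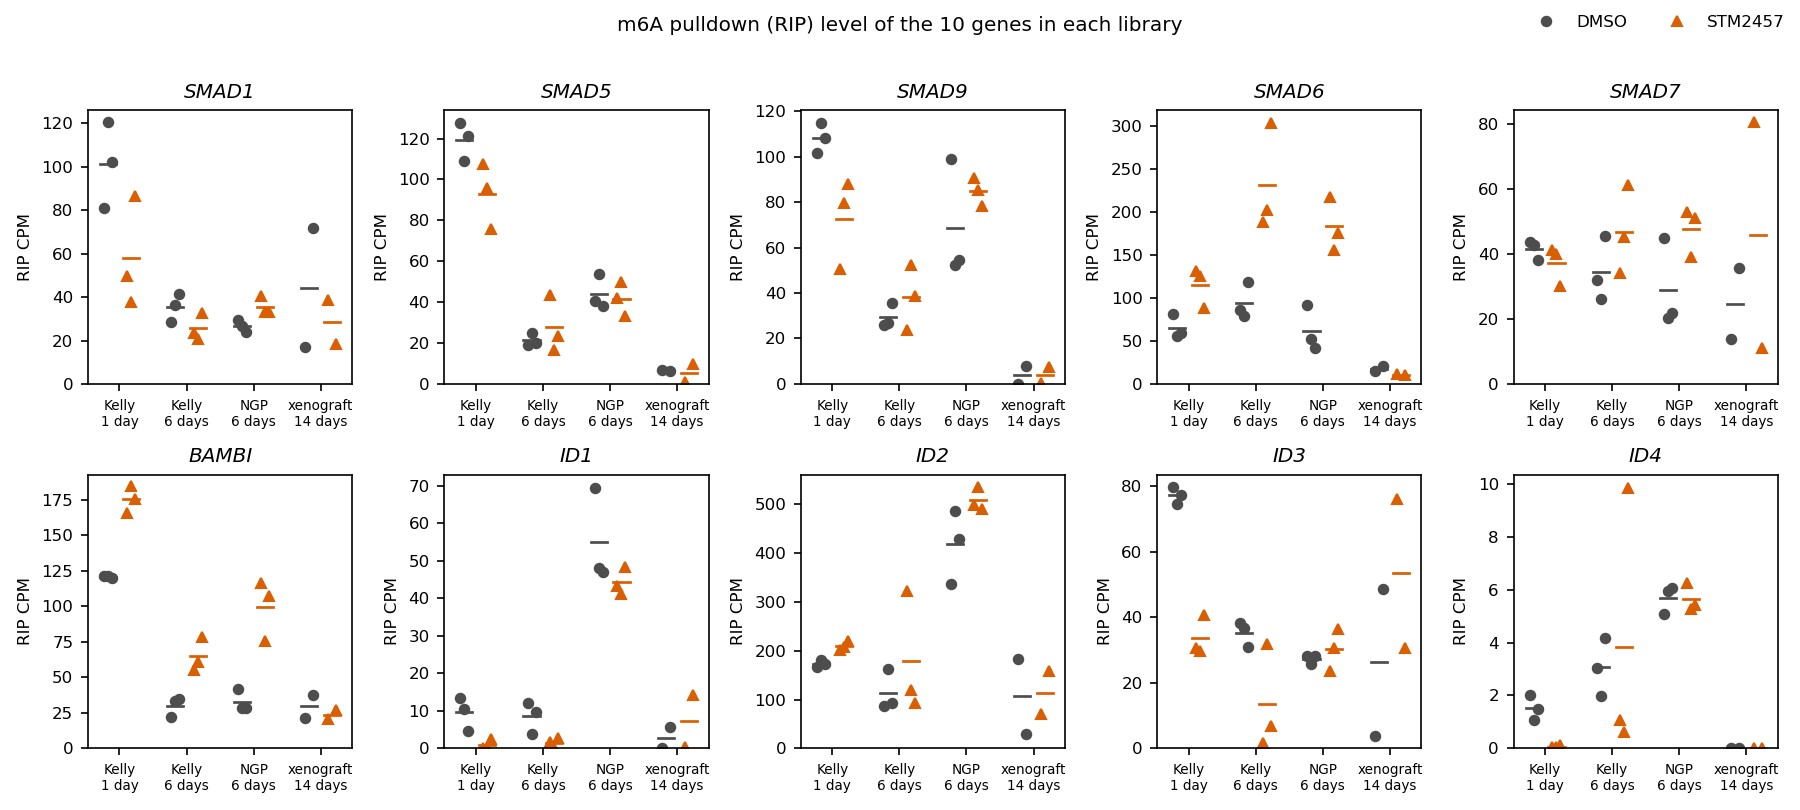
Level in the m6A pulldown (RIP) libraries in CPM (y axis, from 0) of the 10 genes in each library (points; bars are group means), DMSO in grey circles and STM2457 in orange triangles. SMAD6 and BAMBI are higher with STM2457 in each culture experiment, and ID3 in Kelly at 1 day is lower, 29.6 to 40.7 CPM against 74.5 to 79.6 CPM.

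These ratios are relative to the average gene. With RIP size factors from the 13 mitochondrially encoded mRNAs, the median change of all genes moved from -0.028 to -1.47 in Kelly at 1 day and from 0.20 to -1.93 at 6 days. The NGP median moved from -0.0034 to -0.21, and that of the xenograft from 0.12 to -0.36. This scale moves all genes together. On it all 10 members were past the threshold downward in Kelly at 1 day, as were 61.1% of all genes, and 4 of 10 at 6 days, as were 28.7% of all genes: SMAD1 (-2.75), SMAD9 (-2.51), SMAD7 (-2.84) and ID3 (-3.25). SMAD6 then stood at -1.93 in Kelly at 6 days, at the median of all genes. The m6A spike-in RNAs named in the labels were not analysed here, and no absolute scale is given.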

How the data were processed

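The authors deposited a table of read counts per gene for each of 44 libraries, 22 inputs and 22 RIP. Per the file headers these are fragments counted with featureCounts 1.5.3 over exons of protein-coding GENCODE 33 genes, with no strand option. The submitters' processing notes name FastQC 0.11.5, Trimmomatic 0.36, HISAT2 2.1.0, Subread 1.5.3, deepTools 2.0 and GRCh38. The 16 groups come from the labels. Counting without strand cannot part overlapping antisense reads from a gene's own.

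Counts were tested with edgeR 4.0.16 in R 4.3.3 (TMM, filterByExpr with a minimum count of 10 and total of 15, quasi-likelihood, two-sided), each experiment apart, with Benjamini-Hochberg adjustment over all genes at 0.05. Enrichment was the RIP term, and its change with treatment the interaction, in 1 fit per experiment. RIP enrichment also needed a log2 ratio of at least 1. CPM uses the deposited total, and levels between genes are per kilobase of exon union. TMM makes every change relative to the average gene. The tests were tried on simulated data.

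The members and all lists were chosen with earlier results of these data known. Beside the members, the text names list genes that were called at 6 days in Kelly or NGP with groups that do not overlap, up to 3 of the largest per list and experiment, and 8 receptors and partners for their levels; some genes that meet these rules are not reported here. Alternatives were RLE factors, DESeq2 1.42.0, no filter, the replicate number as a block, each replicate left out (its input and RIP together), all inputs in 1 fit, and mitochondrial reference factors for RIP. Sites were read from GENCODE 44 transcripts. Replicate numbers did not mark shared material in the labels, so the main tests use no block. No 2 libraries of a group agreed within sampling noise (40 pairs compared).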

Additional observations from a re-analysis of the deposited data

Results flagged for a closer look

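ID1 libraries lay in opposite order in culture and in the tumours. Its change did not pass in NGP (edgeR adjusted p 0.11) or in the xenograft (edgeR adjusted p 0.532), and the Kelly 6 day call (edgeR adjusted p 0.0322) was lost under 8 of 11 alternatives. Every treated culture library at 6 days was below its controls and both treated tumours were above theirs, so the change in the xenograft minus that in Kelly at 6 days was 1.68 and minus that in NGP 1.78 on the log2 scale. These differences were not tested, and experiment and batch cannot be told apart.

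Among list genes, the interaction of treatment with cell line at 6 days, Kelly minus NGP, was -3.32 for MSX2 (edgeR adjusted p 0.00351) and 1.17 for NEUROD1 (edgeR adjusted p 0.0134). TCF12, an E protein that the ID proteins bind, read 40.1, 38.9 and 38.6 CPM with DMSO and 48.7, 43.6 and 50.6 CPM with STM2457 in Kelly, and 106, 104 and 99.0 CPM against 73.6, 88.7 and 85.3 CPM in NGP. The treated libraries of TCF12 thus lay above the controls in Kelly and below them in NGP, a difference of 0.58 that did not pass (edgeR adjusted p 0.0863). DLX5 did the same, with a difference of 0.78 that did not pass (edgeR adjusted p 0.194). Groups of 2 or 3 libraries are too small to test single libraries as extreme.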

How the results depend on the processing

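SMAD6 passed under all 11 alternatives in Kelly at 6 days (1.02 to 1.27) and in NGP (1.26 to 1.39). Counts of members called moved as follows. Except on the mitochondrial scale, the share of all genes called under the same alternative is not given here, for the block below as well. These counts thus show how member calls moved, and not whether members passed more often than other genes. In the Kelly 1 day inputs the count of 4 became 2 with the replicate number as a block, 1 with all inputs in 1 fit, and 2 to 6 with a replicate left out. The NGP count of 5 ran from 1 to 5 with a replicate left out. The xenograft count of 0 became 3 with all inputs in 1 fit. Leaving out a tumour leaves 1 library in its group, so no count is given for those fits. DESeq2 called 1 member in xenograft RIP over input. The change of RIP over input had 10 in Kelly at 1 day and 4 at 6 days with mitochondrial factors, a scale on which 61.1% and 28.7% of all genes were called lower, and 2 to 5 at 1 day with a replicate left out. The line difference had 1 with DESeq2 and 1 without the filter, and 0 to 1 with a replicate left out. Apart from that scale, the causes were not tested.

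The block gave 6, 5 and 0 members in the Kelly 6 day, NGP and xenograft inputs, and 6 for the baseline, where it lost SMAD1. Same-numbered libraries did not deviate together in all pairs of any experiment (correlations from -0.37 to 0.28), so the pairing is not established. Signs reversed with the block for SMAD1 (-0.038) and SMAD7 (-0.027) in xenograft inputs, SMAD1 in the line difference (0.023) and SMAD5 at baseline (-0.0018). Mitochondrial factors move all genes together, their Kelly 6 day median change of RIP over input from 0.20 to -1.93, so signs there follow the scaling: SMAD5 (-1.70), SMAD6 (-1.93), BAMBI (-1.82), ID2 (-1.83) and ID4 (-1.35) reversed with it.

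With a replicate left out, signs reversed for values near 0 or of wide spread. In inputs, the ranges were -0.0096 to 0.075 for ID3 in Kelly at 6 days, -0.075 to 0.62 for SMAD1 in NGP, and in the xenograft -1.34 to 1.15 for SMAD1, -0.28 to 1.52 for SMAD5, -1.20 to 0.85 for SMAD7 and -0.29 to 2.31 for SMAD9. In the line difference they were -0.28 to 0.41 for SMAD1, -0.37 to 0.066 for SMAD9 and -0.10 to 0.014 for ID2, and at baseline -0.25 to 0.21 for SMAD5 and -0.16 to 0.45 for ID4. For RIP over input in NGP they were -0.11 to 0.45 for SMAD6 and -0.0037 to 0.76 for SMAD7. For its change in Kelly at 6 days they were -0.065 to 0.42 for SMAD6, -0.078 to 0.65 for BAMBI, -0.32 to 0.67 for ID2 and -1.44 to 1.36 for ID4.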
